A study of Mus musculus with 4 samples.

Results

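The genes that encode the Polycomb repressive complexes were examined on 4 single-colour arrays of RNA whose label is Neuro2a (N2a), a neuroblastoma line of the mouse. The members were 10 genes, Ezh2, Ezh1, Eed, Suz12, Jarid2, Ring1, Rnf2, Bmi1, Cbx2 and Cbx7, and they were found as every target whose annotated gene name was one of these. That gave 22 targets of the 44170 on the array, and 10 of the 24171 named genes. By the labels, 2 arrays came from cells that received a scramble siRNA (genotype "control") and 2 from cells that received an siRNA against Men1 (genotype "Men1 knockdown"). All were N2a cells grown in DMEM with serum. The sources used here give neither the time after transfection nor the siRNA sequence, and they do not say whether replicates were separate cultures. P-values therefore cover the spread of these arrays alone, and that spread may be technical.

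Polycomb proteins keep developmental genes silent through chromatin. In PRC2, the methyltransferase EZH2 or EZH1 works together with EED and SUZ12 to methylate histone H3 at lysine 27, and JARID2 helps to recruit the complex. In canonical PRC1, the ring finger proteins RING1 or RNF2 ubiquitinate histone H2A in a pair with a ring finger partner such as BMI1, and a CBX protein such as CBX2 or CBX7 reads the methyl mark. Menin, the product of Men1, belongs to a complex that methylates histone H3 at lysine 4, a mark of active chromatin. The comparison asked whether the transcripts of the silencing machinery differed when Men1 was targeted.

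Of the 10 Polycomb genes, 0 passed the test with Men1 siRNA (limma, Benjamini-Hochberg adjusted p under 0.05 over all genes), beside 0.389% of all genes (0.352% lower and 0.0372% higher). Log2 changes, Men1 siRNA minus scramble siRNA, ran from −0.65 to 0.09 with standard errors (SE) from 0.30 to 0.42, and adjusted p-values from 0.453 to 0.965. In sign, 8 of the 10 were negative, where 45.5% of all genes were, and the median was −0.38 against 0.06 over all genes. The groups of arrays did not overlap for 5 of the 10, with Men1 siRNA lower for Jarid2, Eed, Ring1 and Cbx2 and higher for Rnf2. Over all genes the share was 47.5%, made up of 21.7% lower and 25.8% higher. At an unadjusted p under 0.05 there were 0 of the 10, where 14.2% of all genes lay (7.74% lower and 6.47% higher). Because the 10 genes were chosen with results of these data known, neither the sign count nor the overlap count was tested.

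The number of arrays limited what could be seen. Of the 94 genes that passed, none had an absolute log2 change under 2.78. No member came near that size. The 95% intervals give the sizes left possible for the members. At the brightest target of each gene, all 10 upper bounds lay below 1. An increase to 2 times the scramble level was outside each of these intervals. For 3 of the 10, Ezh2, Suz12 and Rnf2, the lower bound also lay above −1. Dimmer targets left more open. In the fit over targets, upper bounds were 3.63 for AK045374 of Ezh1, 1.80 for BC056384 of Bmi1 and 1.27 for AK044888 of Jarid2. Lower bounds were −1.77 for AK088575 of Ezh2 and −1.10 for AK030319 of Rnf2.

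Men1 itself, on chromosome 19, had intensities of 6985 and 6222 at its brighter target under scramble siRNA, against 2764 and 4109 under Men1 siRNA. The knockdown arrays were the lower ones, as labelled. Men1 did not pass the test, at −0.97 ± 0.35 on the log2 scale (limma adjusted p = 0.314; SE with n = 2 per group, as for every change given here), and its other target gave −0.19. Array medians were between 145.9 and 151.2, and 5000 random control probes read 42.8 to 52.3. Intensities from 100 upward were treated as well above background, since the authors' value table holds only targets that reached 100 throughout. The brightest target of a gene stood for it, and all 10 genes reached 100 on every array at that target. Of the 22 targets, 18 did. Each target is a transcript sequence read by 3 probes, and intensities of different targets or genes are not comparable as levels.

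**Figure D1:**
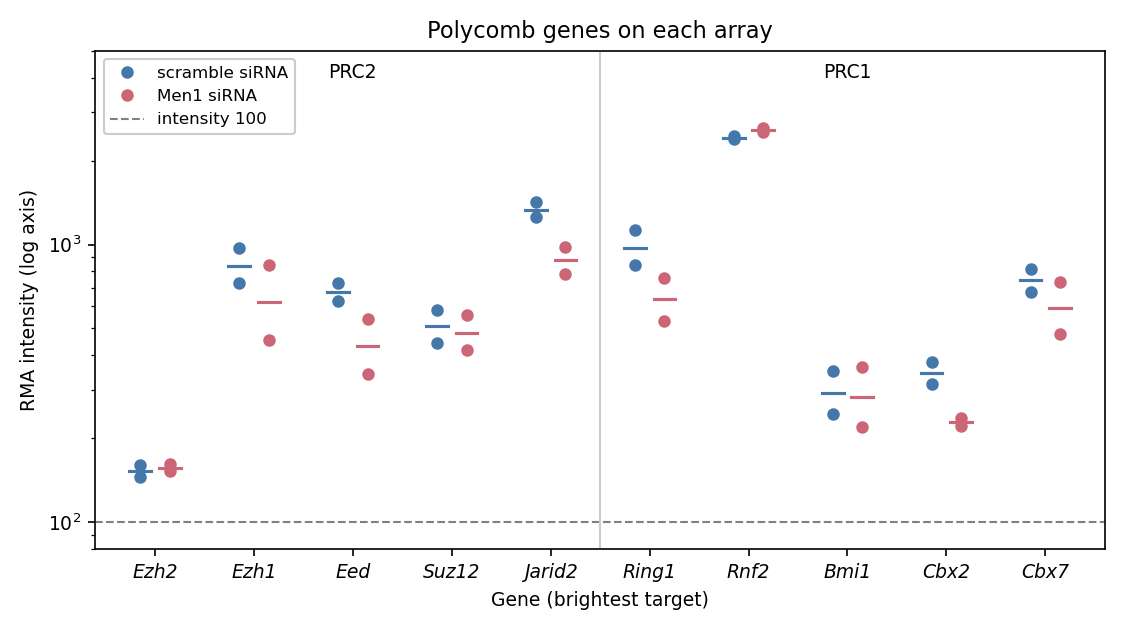
Intensity (log axis) of the brightest target of each Polycomb gene on each array, with 2 arrays per group as points and the mean of their log2 values as a bar. The Men1 siRNA points lie wholly below the scramble siRNA points for Eed, Jarid2, Ring1 and Cbx2 and wholly above them for Rnf2, and the Ezh2 points, at 145 to 162, lie closest to the dashed line at 100.

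Upstream sequences are shown only for the PRC2 core genes Ezh2, Eed and Suz12 and for the paralogous ring finger pair, Ring1 and Rnf2. They are the 250 bases before the RefSeq start on GRCm38.p6, which is another build than the MM9 of the array annotation, written 5′ to 3′ in the direction of the gene. Capitals mark CCAAT boxes (CCAAT, both strands), GC boxes (GGGCGG, both strands) and an E2F-type site (TTTCCCGC, TTTGGCGC, TTTCGCGC or TTTGCCGC, both strands). Where GC boxes touch, their capitals run together. The windows are chr6:47595031-47595280 (minus strand), chr7:89980977-89981226 (minus strand), chr11:79992856-79993105 (plus strand), chr17:34024681-34024930 (minus strand) and chr1:151500992-151501241 (minus strand).
Ezh2: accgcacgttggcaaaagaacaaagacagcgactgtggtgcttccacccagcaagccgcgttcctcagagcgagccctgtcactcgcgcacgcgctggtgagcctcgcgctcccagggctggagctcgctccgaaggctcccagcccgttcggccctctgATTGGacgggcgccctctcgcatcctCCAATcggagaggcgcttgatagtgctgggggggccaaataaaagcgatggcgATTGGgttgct
Eed: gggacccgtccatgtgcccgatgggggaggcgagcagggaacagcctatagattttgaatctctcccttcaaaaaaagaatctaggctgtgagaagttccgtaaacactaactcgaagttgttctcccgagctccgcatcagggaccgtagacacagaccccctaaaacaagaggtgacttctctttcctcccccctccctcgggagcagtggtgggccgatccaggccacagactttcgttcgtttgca
Suz12: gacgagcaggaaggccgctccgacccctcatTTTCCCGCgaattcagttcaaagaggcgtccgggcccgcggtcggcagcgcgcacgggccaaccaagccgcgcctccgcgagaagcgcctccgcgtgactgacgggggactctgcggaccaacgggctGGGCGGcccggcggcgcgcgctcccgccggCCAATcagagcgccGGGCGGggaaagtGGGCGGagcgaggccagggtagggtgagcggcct
Ring1: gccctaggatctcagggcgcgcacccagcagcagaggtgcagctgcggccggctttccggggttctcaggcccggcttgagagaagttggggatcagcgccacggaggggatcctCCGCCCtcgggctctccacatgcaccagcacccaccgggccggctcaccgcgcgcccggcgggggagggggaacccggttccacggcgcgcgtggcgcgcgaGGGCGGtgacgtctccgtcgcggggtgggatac
Rnf2: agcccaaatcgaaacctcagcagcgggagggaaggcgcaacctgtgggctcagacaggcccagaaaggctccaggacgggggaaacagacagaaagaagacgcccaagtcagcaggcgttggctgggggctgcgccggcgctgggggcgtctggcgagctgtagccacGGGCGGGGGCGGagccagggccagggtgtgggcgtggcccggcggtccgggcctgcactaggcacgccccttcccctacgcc

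In these windows Ezh2 held 3 CCAAT boxes and no GC box, and Suz12 held 1 CCAAT box, 3 GC boxes and 1 E2F-type site. Ring1 and Rnf2 each held 2 GC boxes, and Eed held none of the 3 motifs. Windows of the same length over all 32851 RefSeq entries held a CCAAT box in 33.8%, a GC box in 32.7% and an E2F-type site in 1.86%. A CCAAT box was found in 4 of the 10 member entries, a GC box in 7 and the E2F-type site in 1. These entries belong to 9 members, namely Ezh1, Ezh2, Eed, Suz12, Jarid2 with 2 starts, Ring1, Rnf2, Bmi1 and Cbx7. CpG pairs numbered 23 for Ezh2, 12 for Eed, 37 for Suz12, 30 for Ring1 and 20 for Rnf2, where the median over all entries was 6. Suz12 thus carried the most CpG pairs of the 5 printed windows and Eed the fewest. A match to these letters is a description of the sequence only.

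Ezh2, the main PRC2 methyltransferase of dividing cells, lies on chromosome 6 (47480272 to 47544926 on MM9 for its brighter target, BC003772). It had values of 144.9 and 160.6 under scramble siRNA, then 162.1 and 152.1 under Men1 siRNA. The groups overlapped, and all 4 arrays stood a little above the level of 100. The fitted difference was 0.04 ± 0.31 on the log2 scale (SE; limma adjusted p = 0.965), with a 95% interval from −0.72 to 0.80. The other target, AK088575 (47502384 to 47545337), read 45.2 and 113.8 against 49.2 and 48.9, so only 1 of its 4 arrays reached 100. No fold is given for it.

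Ezh1, the methyltransferase that takes over in cells that no longer divide, had 4 targets on chromosome 11, and they did not run together. The brightest, AK164192 (101058700 to 101087727), had 970.8 and 726.8 under scramble siRNA, then 843.7 and 454.0 under Men1 siRNA, for −0.44 ± 0.42 on the log2 scale (SE; limma adjusted p = 0.676). Its groups overlapped. AF483491 (101052429 to 101078682) read 431.4 and 344.0 against 168.7 and 197.2, so both Men1 siRNA arrays lay well below both scramble siRNA arrays. Its change of −1.08 ± 0.34 (SE) did not pass over all targets (limma adjusted p = 0.282). It was the 1 of the 22 member targets at an unadjusted p under 0.05, where 13.6% of all targets lay (7.41% lower and 6.16% higher).

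The remaining Ezh1 targets gave a different picture. BC007135 (101052428 to 101080034) nearly shares the span of AF483491, and it read 481.3 and 400.9 against 343.7 and 451.5, a change of −0.16 ± 0.35 in the fit over targets. AK045374, which has the same span as the brightest target, read 52.2 and 121.7 against 94.8 and 541.0. Its change of 1.51 ± 0.87 rested on Men1 siRNA replicate 2 alone, since 2 of the other 3 arrays were under 100. The target AF483491 is therefore not matched by its near neighbour, and the mean of the 4 Ezh1 targets gave −0.04 without passing. Where the probes of a target sit within its transcript is not given in the sources used here.

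Eed, the WD-repeat subunit that binds the methylated histone tail, had 1 target, on chromosome 7 (97103184 to 97129462). Its intensities were 626.3 and 726.6 under scramble siRNA, then 340.6 and 541.3 under Men1 siRNA. Both Men1 siRNA arrays were lower, at 0.636 times the scramble level, but they lay further from each other than the nearest arrays of the groups did. The log2 change of −0.65 ± 0.37 (SE, n = 2 per group) was the most negative of the 10 genes and did not pass (limma adjusted p = 0.480). Suz12, the zinc finger subunit that holds the complex together, also had 1 target, on chromosome 11 (79806607 to 79847625). It read 442.9 and 581.7 against 557.7 and 416.7, with overlapping groups and a change of −0.07 ± 0.35 (SE; limma adjusted p = 0.941; 95% interval −0.94 to 0.79).

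Jarid2, a DNA-binding PRC2 cofactor, had 5 targets on chromosome 13 and, in limma, the smallest p of the 10 genes. Its brightest target, BC052444 (44826271 to 45016346), had 1426 and 1255 under scramble siRNA, then 980.7 and 785.4 under Men1 siRNA. The groups did not overlap, with −0.61 ± 0.32 on the log2 scale (SE; limma adjusted p = 0.453). D31967, over nearly the same span, read 1146 and 746.4 against 752.1 and 650.8, where scramble siRNA replicate 2 and Men1 siRNA replicate 1 were almost level. AK045214 read 1078 and 804.9 against 825.3 and 758.2, a change of −0.24 ± 0.34 in the fit over targets. The groups overlapped for both D31967 and AK045214. The annotated span of a target does not say where its 3 probes sit. BC052444, D31967 and AK045214, annotated over nearly the whole gene, were all negative, from −0.61 to −0.24.

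The other Jarid2 targets were not. AK164134, which starts within the gene (44936144 to 45009745), read 859.0 and 605.8 against 791.4 and 744.5, a change of 0.09 ± 0.35 with overlapping groups. AK044888, which ends within it (44826717 to 44980397), read 30.7 and 36.1 against 47.0 and 45.3, under 100 on every array, so no fold is given. The mean of the 5 targets gave −0.14 for the gene. The genes whose pattern over the 4 arrays was nearest to that of Jarid2, by root mean square distance of centred log2 values among 12076 genes above the median level, were Nr1h2 (0.0149), Rps4x (0.0247) and Fhdc1 (0.027). Over so few arrays such a likeness describes the arrays only.

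**Figure D2:**
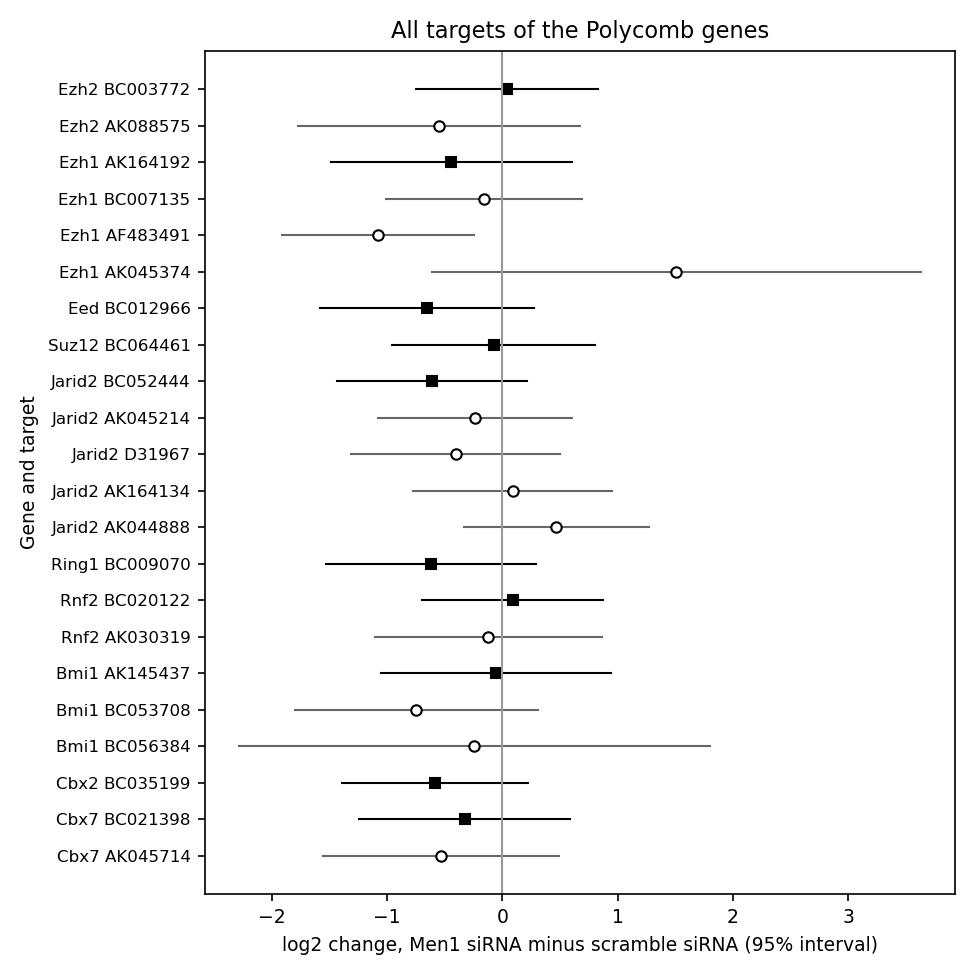
Log2 change (Men1 siRNA minus scramble siRNA) of each of the 22 targets with its 95% interval from the fit over targets, with filled squares for the brightest target of a gene and open circles for the others. Of the 22 changes 17 are negative, and the interval leaves out 0 only for AF483491 of Ezh1.

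Among PRC1 genes, the ring finger paralogs differed in sign. Ring1, the ubiquitin ligase also called Ring1A, lies on chromosome 17 (34158028 to 34161588). Its scramble siRNA values were 1126 and 844.1, and its Men1 siRNA values 760.4 and 529.1. The groups did not overlap, at 0.651 times the scramble level or −0.62 ± 0.36 on the log2 scale (SE; limma adjusted p = 0.493). Rnf2, or Ring1B, the ligase that carries most of the activity in many cells, lies on chromosome 1 (153317508 to 153347926 for its brighter target). It read 2398 and 2459 against 2630 and 2542, the tightest replicates of the 10 genes on the log2 scale of the fit (SE 0.30).

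The groups of Rnf2 did not overlap either, but the change was only 0.09 ± 0.30 (limma adjusted p = 0.915; 95% interval −0.66 to 0.84). Its dimmer target, AK030319, read 313.4 and 517.4 against 430.3 and 318.2, with overlapping groups and −0.12 ± 0.40 in the fit over targets. The difference between the changes of Ring1 and Rnf2 was not tested.

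Bmi1, the ring finger partner also known as Pcgf4, had 3 targets on chromosome 2. AK145437 (18602000 to 18608256) had scramble siRNA values of 349.5 and 244.9, then 219.6 and 361.2 under Men1 siRNA, which overlapped, for a change of −0.05 ± 0.40 (SE; limma adjusted p = 0.965). BC053708 (18599030 to 18607572) read 206.5 and 414.0 against 170.0 and 179.2. Here both Men1 siRNA arrays were lower, but the scramble siRNA replicates lay further from each other than the groups did (−0.74 ± 0.43 in the fit over targets, adjusted p = 0.503). BC056384 (18603437 to 18608256) read 592.7 and 99.4 against 161.4 and 260.9, so its scramble siRNA replicates bracketed both Men1 siRNA arrays.

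Cbx2, a chromodomain reader able to compact chromatin, had 1 target, on chromosome 11 (118884342 to 118892584). Its scramble siRNA values were 376.4 and 314.4, and its Men1 siRNA values 237.5 and 221.0. The groups did not overlap and lay further apart than the replicates of either, with −0.59 ± 0.31 on the log2 scale (SE; limma adjusted p = 0.456). Cbx7, the reader prominent in stem cells, had 2 targets on chromosome 15. BC021398 (79747711 to 79763057) read 817.8 and 676.4 against 477.8 and 735.1, with overlapping groups and −0.33 ± 0.36 (SE; limma adjusted p = 0.718), and AK045714 (79746236 to 79763076) read 229.9 and 382.3 against 167.8 and 251.6, a change of −0.53 ± 0.42 in the fit over targets.

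By complex, 4 of 5 PRC2 genes and 4 of 5 PRC1 genes were negative, beside 45.5% of all genes. In each complex, 2 had Men1 siRNA wholly lower, beside 21.7% of all genes. Across the 22 targets, 17 were negative and 5 positive, where 45.8% of all targets were negative. Groups did not overlap for 6 with Men1 siRNA lower and 2 with it higher, beside 21.3% and 25.3% of all targets (46.6% together). Past the test lay 0 of the 22, beside 0.34% of all targets (0.312% lower and 0.0272% higher). Of the 6 genes with several targets, 4 (Ezh2, Ezh1, Jarid2 and Rnf2) had targets of both signs. By array, scramble siRNA replicate 1 was the highest for 5 of the 10 genes and Men1 siRNA replicate 2 the lowest for 5. Without scramble siRNA replicate 1 the median change of the 10 genes was −0.25, and without scramble siRNA replicate 2 it was −0.50.

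The partners of these complexes were taken as lists. Of 8 measured PRC2 partners, 0 passed, 5 were negative and the median log2 change was −0.13. Aebp2, a zinc finger cofactor of PRC2, read 449.0 and 340.7 against 200.7 and 175.1, a change of −1.06 ± 0.33 (SE; limma adjusted p = 0.268), whereas Epop, which links PRC2 to elongin, had 0.64 ± 0.34 and Lcor 0.53 ± 0.40, and the PRC2 inhibitor gene Ezhip was under 100 on every array. Of 20 measured PRC1 partners, 0 passed, 14 were positive and the median was 0.13. Cbx8, another chromodomain reader, read 209.1 and 256.8 against 416.5 and 311.3 (0.64 ± 0.34), Pcgf1 had 0.52 ± 0.34 and Kdm2b, which brings variant PRC1 to CpG islands, 0.49 ± 0.30. The corepressor Bcor of the same variant complex had −0.53 ± 0.31. Over all genes, 13162 of 24171 were positive and the median was 0.06. The groups overlapped for 14 of the 20 PRC1 partners, and Men1 siRNA was wholly lower for 1 and wholly higher for 5. Those shares over all genes were 21.7% lower and 25.8% higher. Among the 10 members 8 were negative, and the difference between the lists was not tested.

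Enzymes that reverse or oppose the Polycomb marks also held no gene past the test among 7 measured, with 4 negative and a median of −0.31. Kdm6a, a demethylase of H3 lysine 27, had scramble siRNA values of 616.0 and 539.6 against 403.3 and 248.8, a change of −0.86 ± 0.37 (SE; limma adjusted p = 0.376). Bap1, the H2A deubiquitinase, read 2074 and 2014 against 2875 and 3203 (0.57 ± 0.31), its groups not overlapping. Its cofactor genes ran in both directions, with −0.82 ± 0.36 for Asxl2 and, for Asxl3, 189.1 on Men1 siRNA replicate 2 and under 100 on the other 3 arrays.

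**Figure D3:**
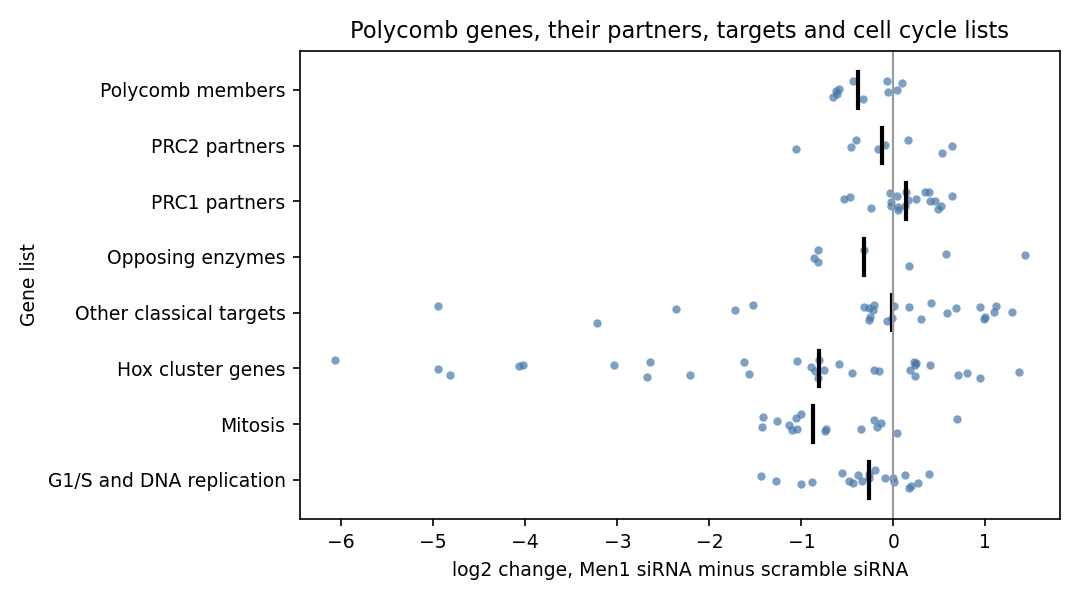
Log2 change of every measured gene (points) in the 10 Polycomb members, 3 lists of partners and opposing enzymes, 2 lists of classical targets and 2 cell cycle lists, with a bar at each list's median. The members, from −0.65 to 0.09, span less than either target list, in which Sox17 and Hoxa10 lie at −4.95.

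Classical Polycomb targets were taken as a pair of lists, and their counts were not tested against those of the complexes or against the 0.389% of all genes that passed. Of 25 measured developmental and cell cycle targets outside the Hox clusters, 2 fell, 0 rose and 23 did not pass, with a median log2 change of −0.02. Sox17, an endoderm and endothelial transcription factor gene, fell from 5580 and 2665 to 141.7 and 110.4, a log2 change of −4.95 ± 0.45 (SE; limma adjusted p = 0.0347). Wt1, a zinc finger gene of the urogenital ridge and mesothelium, fell from 1441 and 991.9 to 110.2 and 149.0, a change of −3.22 ± 0.37 (limma adjusted p = 0.0452). The kidney and midbrain gene Pax2 had −2.36 ± 0.45 and Dlx5 −1.72 ± 0.38 without passing. Cdkn2a, the cell cycle inhibitor gene best known as a target of Bmi1, was at least 1.73-fold higher with Men1 siRNA, also without passing (70.8 and 70.6 against 167.4 and 178.3; limma adjusted p = 0.181); it was picked out after its values were seen.

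Of 31 measured Hox cluster genes, 4 fell, 0 rose and 27 did not pass, with a median of −0.81. Hoxa10 read 4170 and 3922 against 129.5 and 132.9, and Hoxd9 read 2041 and 1726 against 136.1 and 97.3. Hoxa11 and Hoxb8 lay under 100 on the Men1 siRNA arrays, which bounds them as at least 30-fold and at least 8.85-fold lower. The endothelial, epithelial and fibroblast marker lists described further on were lower on the same arrays (medians −2.02, −3.67 and −2.63), and their part in the values of these targets was not tested. In the fit over genes, crossed replicate numbers used as a block ended every call, these 6 genes included. Calls were also lost with any single array left out, which leaves 1 array in a group. In those fits, changes ran from −4.99 to −4.90 for Hoxa10 and −6.45 to −5.69 for Hoxa11. They ran from −5.38 to −4.26 for Hoxb8 and −4.27 to −3.79 for Hoxd9. In the fit over array targets, 165 passed with the crossed block, beside 150 in the main setting. Wt1 also failed to pass with the replicate number as a block (adjusted p = 0.0745), when its targets were averaged (0.107) and under median scaling, quantile normalization and cyclic loess (adjusted p from 0.0517 to 0.0618).

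Cell cycle genes were mostly lower in sign on the same arrays, and Ezh2 is known as a gene of cycling cells. Among 16 measured mitosis genes there were 14 with a negative change and 0 past the test, with a median of −0.87. Mki67, the proliferation marker, read 2574 and 2480 against 1035 and 1284, a change of −1.13 ± 0.32 (SE; limma adjusted p = 0.233), and Top2a had −1.41 ± 0.34, Tpx2 −1.27 ± 0.33 and Aurka −1.11 ± 0.32. Among 20 genes of the G1 to S transition and DNA replication, 14 had a negative change and 0 passed (median −0.27). The helicase gene Mcm2 read 539.0 and 522.7 against 228.1 and 209.2 (−1.28 ± 0.30), Mcm3 had −1.44 ± 0.34 and the clamp gene Pcna −0.89 ± 0.30, and Tyms was at least 1.68-fold lower. Of the 10 members, 8 were negative, where 45.5% of all genes were. Ezh2 was at 0.04, with a 95% interval from −0.72 to 0.80 that covers changes of either sign. The part of the cell cycle genes in the values of the 10 members was not tested.

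Fibroblast, epithelial and endothelial marker lists had medians well below 0. Of 11 fibroblast markers, 3 fell and 11 were negative (median −2.63), and their summed intensity, which like all sums here follows the brightest targets, was 50874 to 52492 under scramble siRNA and 11036 to 11556 under Men1 siRNA. Of 9 epithelial markers, 4 fell and 8 were negative (median −3.67), with sums of 16999 to 26072 against 1194 to 2313. Of 8 endothelial markers, 1 fell and all 8 were negative (median −2.02), with sums of 5830 to 9479 against 1752 to 1890. Of 8 immune markers 0 passed (median −0.04; sums 4126 to 6070 against 3054 to 3818). Toward Men1 siRNA, 2 of 4 adipocyte markers rose (median 3.47; sums 466.1 to 623.1 against 5230 to 7157).

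Neural and red cell markers were also present. Of 10 forebrain neuron markers, 0 passed and 10 were positive (median 0.70; sums 17923 to 26517 against 32468 to 36013). Of 9 glial markers, 0 passed (median 0.33; sums 9074 to 12186 against 11894 to 13965), and of 4 red cell markers 0 passed (median 0.90; sums 13217 to 25581 against 33361 to 39830). Among markers of the labelled cell type, Stmn2, Chga and Mycn were far above 100 on every array, while Th, the gene of the first enzyme of catecholamine synthesis, lay near it, under 100 on scramble siRNA replicate 1 and between 112.8 and 141.6 on the other 3 arrays. Of the 9 measured neuroblast markers, Gata2 fell at least 45.5-fold (6002 and 3452 against 83.9 and 83.5; limma adjusted p = 0.0281) and the median was 0.22 (sums 25358 to 29290 against 32220 to 32481). The labels name N2a cells alone, and a marker list does not show that cells of its type were in the samples. In RNA from a whole sample, fewer cells of a type and less RNA per cell cannot be told apart. The part of these marker genes in the values of the Polycomb genes was not tested.

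**Figure D4:**
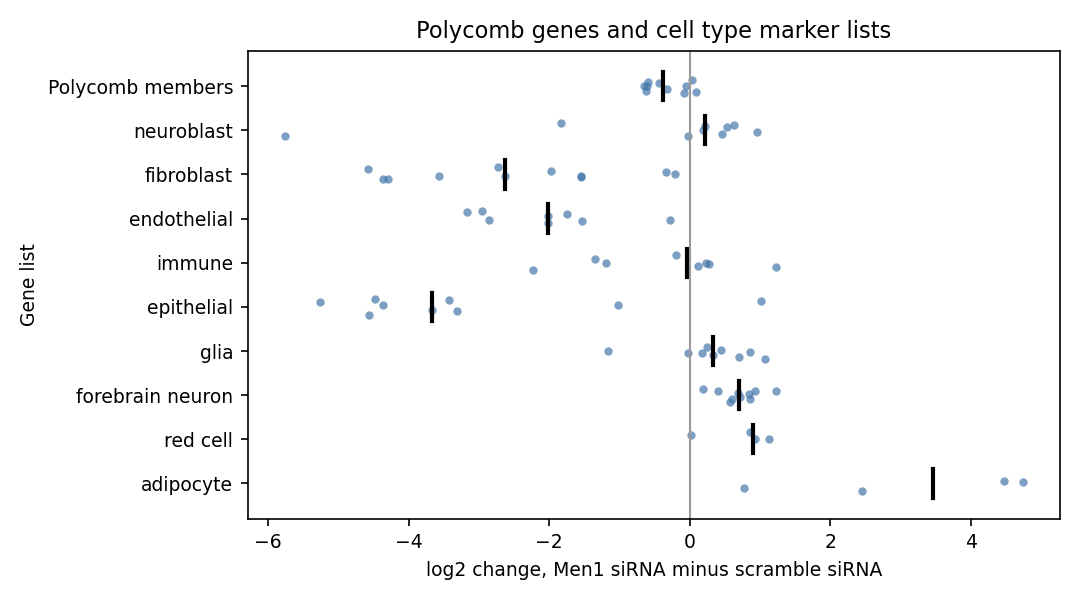
Log2 change of every measured gene (points) in the 10 Polycomb members and 9 cell type marker lists, with a bar at each list's median. The members lie within 0.65 of 0, whereas the medians of the fibroblast, endothelial and epithelial lists lie at −2.63, −2.02 and −3.67 and that of the adipocyte list at 3.47.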

How the data were processed

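Intensities were deposited by the authors per array, on a linear scale, with robust multi-array average (RMA) summaries per target, per the file names and headers, annotated on MM9. The array format and labelling protocol are those of NimbleGen, whereas the series text names Agilent. Background correction is not given in the sources used here. Of 24204 gene IDs, 21583 matched a current symbol, and 2284 targets without a symbol were tested only as targets. Values were used as log2, with nothing added. Per gene (24171, brightest target over the 4 arrays) and per target (44170), Men1 siRNA was compared with scramble siRNA in a linear model with the group alone (R 4.3.3; lmFit and eBayes, limma 3.58.1), two-sided, adjusted by Benjamini-Hochberg at 0.05. With 2 arrays against 2, exact permutation stops at a two-sided p of 0.33. If a group had both arrays under 100, its fold is a bound against 100.

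The 10 members, the lists and the tests were chosen with earlier results of these data known. All targets of the members were named, and up to 4 genes with the smallest p per pathway list. List genes not measured were not analysed here. The test was checked on simulated data. The image names inside the array files do not all carry the number of their sample, and samples were assigned by their GEO record. As alternatives, each array was left out, the replicate number was used as a block, and 3 normalizations, the mean of targets, a filter on dim features, a pseudocount of 32, other priors and the authors' value table were tried. Tables and plots were made with pandas 2.3.3, numpy 2.4.6 and matplotlib 3.10.9 under Python 3.11.15.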

Additional observations from a re-analysis of the deposited data

How the results depend on the processing

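Of the 10 Polycomb genes, 0 passed in each of the 15 alternatives, with a lowest adjusted p of 0.253. The crossed block and the fits with 1 array left out made no calls over all genes. Those settings could not have shown a member passing, so they say nothing on this count. With a prior that follows intensity, 1 of the 10 genes (Jarid2) had an unadjusted p under 0.05 in limma, and 0 in the main setting. The blocks, the priors, the filter on dim features and the value table leave a member's log2 change as it is. Among the other settings, the sign turned with the mean of all targets for Ezh2 (−0.25) and Rnf2 (−0.016) and with quantile normalization for Bmi1 (0.017). With 1 array left out in turn, changes ran from −0.033 to 0.115 for Ezh2, −0.89 to 0.0064 for Ezh1, −0.28 to 0.14 for Suz12 and −0.41 to 0.30 for Bmi1. They ran from −0.99 to −0.32 for Eed, −0.77 to −0.45 for Jarid2, −0.88 to −0.36 for Ring1, −0.72 to −0.46 for Cbx2, −0.64 to −0.017 for Cbx7 and 0.066 to 0.115 for Rnf2. Among other targets, they ran from −1.21 to 0.12 for AK088575 of Ezh2 (values near background), −0.35 to 0.040 for BC007135 of Ezh1, −0.16 to 0.34 for AK164134 of Jarid2, −0.48 to 0.24 for AK030319 of Rnf2 and −1.53 to 1.05 for BC056384 of Bmi1. As the mean of targets, Asxl2 gave 0.020 and Lcor −0.037, and smaller changes of the same sign were found for Kdm6a (−0.24), Kdm2b (0.13), Aurka (−0.52), Tpx2 (−0.63), Tyms (−0.49), Asxl3 (0.44), Nr1h2 (−0.13) and Men1 (−0.58), whereas Bmi1 gave −0.35 and Pcgf1 0.80.

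Over all genes, 94 passed, and 289 with dim features removed, 252 with the pseudocount, 711 with a prior that follows intensity and 418 in the value table. None passed (0) with 1 array left out or with crossed replicate numbers as a block, which was chosen after seeing the data because same-numbered arrays deviated in opposite directions (correlation −0.175 across genes). Over all targets, 150 passed, 451 with dim features removed, 1070 with a prior that follows intensity, 165 with the crossed block and 0 with 1 array left out. With the replicate number as a block 69 genes and 144 targets passed. The replicate numbers were not shown to pair the arrays. In the value table the 2 scramble siRNA columns hold each other's values for the 18 member targets listed there, which leaves group changes as they were. For these targets, replicate numbers taken from the value table would pair the arrays as the crossed block does. Targets with arrays under 100, such as AK088575 of Ezh2, have no reliable fold.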
